A study of Mus musculus with 30 samples.

Results

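The levels of 5 kidney genes were described over 5 tissues of newborn mice that lack the nuclear receptor ERRγ (gene Esrrg) and of wild-type mice: Kcnj1, which encodes the potassium channel ROMK, Umod, which encodes uromodulin, Cldn10, Ptger3 and Irx1. The measurements taken were all probe sets (groups of short DNA probes that together measure one transcript) to which the array annotation gives one of these symbols. There were 8 such probe sets of 22626 on the array, for 5 genes of 12393: 2 each for Kcnj1, Umod and Ptger3 and 1 each for Cldn10 and Irx1. The genes were grouped by name, as genes of the thick ascending limb of the kidney tubule, and were chosen with earlier results of these data known.

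The study, whose title concerns potassium balance in heart, stomach and kidney, hybridized total RNA of kidney, brain, stomach, liver and salivary tissue to Affymetrix MOE430A arrays. Each tissue had 3 arrays of ERRγ null mice and 3 of wild-type mice, which makes 10 groups and 30 arrays. All groups shared a mixed SV129/C57BL/6 background, neonatal age, a standard chow diet with free access to food and water, Trizol extraction and no treatment, and the sex is labelled unknown. The labels give neither the deleted part of Esrrg nor the number of animals behind an array. A p-value therefore speaks only for the spread among the arrays at hand, which may in part be technical.

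The thick ascending limb is the stretch of the kidney tubule that takes up sodium, potassium and chloride through the cotransporter NKCC2 (gene Slc12a1) without taking up water. ROMK returns potassium to the tubule fluid across the same membrane, which keeps the cotransporter supplied and makes the fluid electrically positive, and that charge drives sodium, calcium and magnesium between the cells through claudins. Uromodulin is made in this segment and is the most abundant protein of normal urine.

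The promoters of the genes called lower in null kidney are printed first, and whether ERRγ acts on them was not tested. They are RefSeq sequences on GRCm38.p6, 250 bases before to 50 after an annotated start, read 5′ to 3′ on the gene's own strand. Kcnj1 lies at chr9:32393735-32394034 (plus strand), Umod at chr7:119479213-119479512 (minus strand), the upstream start of Cldn10 at chr14:118787621-118787920 and its downstream start at chr14:118854700-118854999 (both plus strand). Capitals mark GTTAAT, or its reverse complement ATTAAC, part of the binding site of the kidney and liver factor HNF1.
Kcnj1: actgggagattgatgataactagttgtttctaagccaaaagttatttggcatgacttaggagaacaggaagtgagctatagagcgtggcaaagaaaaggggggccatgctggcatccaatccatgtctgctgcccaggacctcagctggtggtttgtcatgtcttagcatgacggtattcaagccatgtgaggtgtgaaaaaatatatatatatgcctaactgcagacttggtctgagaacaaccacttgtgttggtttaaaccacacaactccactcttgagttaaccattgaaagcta
Umod: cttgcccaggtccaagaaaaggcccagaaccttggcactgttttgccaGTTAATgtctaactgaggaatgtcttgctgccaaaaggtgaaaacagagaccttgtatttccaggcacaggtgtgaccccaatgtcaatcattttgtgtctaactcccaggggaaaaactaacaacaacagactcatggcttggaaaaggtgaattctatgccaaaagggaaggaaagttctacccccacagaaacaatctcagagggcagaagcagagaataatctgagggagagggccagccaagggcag
Cldn10 upstream start: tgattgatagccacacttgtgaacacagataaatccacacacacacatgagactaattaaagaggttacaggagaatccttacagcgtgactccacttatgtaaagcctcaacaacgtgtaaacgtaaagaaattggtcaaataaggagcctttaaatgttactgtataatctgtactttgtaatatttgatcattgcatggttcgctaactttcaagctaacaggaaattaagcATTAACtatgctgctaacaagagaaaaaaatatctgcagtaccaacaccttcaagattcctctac
Cldn10 downstream start: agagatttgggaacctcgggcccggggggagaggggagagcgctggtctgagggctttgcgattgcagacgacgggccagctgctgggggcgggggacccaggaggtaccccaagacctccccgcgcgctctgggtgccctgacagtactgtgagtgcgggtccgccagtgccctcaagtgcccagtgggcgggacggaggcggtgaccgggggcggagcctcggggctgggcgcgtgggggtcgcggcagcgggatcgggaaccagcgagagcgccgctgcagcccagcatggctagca

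The search covered 3 motifs on both strands: TCAAGGTCA, an element bound by estrogen-related receptors, its core AAGGTCA, which lies inside it, and GTTAAT. Over all 32851 promoters of the same length, TCAAGGTCA was present in 0.423%, AAGGTCA in 4.72% and GTTAAT in 7.10%. The letters of TCAAGGTCA and AAGGTCA are in none of the 4 windows printed, nor in that of Ptger3 (chr3:157566626-157566925, plus strand). Most promoters lack these letters, so their absence is not informative, and sequence outside the windows was not searched. The Umod window holds GTTAAT far from the start, at position -202, and the upstream Cldn10 window holds the reverse complement close to the start, at position -15. The upstream Cldn10 window has 36.0% G and C and the downstream one 72.0%, against a median of 52.7% over all promoters, so the gene's starts differ in base composition. The table matched 4 of the 5 genes, and Irx1 is named only.

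Values are log2 MAS5 signals, so a difference of 1 is a factor of 2 in signal. The array medians ran from 5.80 to 6.08, and the 2% trimmed mean of the linear values lay between 149.9885 and 150.0076. No detection calls were used, so a dim probe set has no known distance from background; a probe set was tested in a tissue only where its average signal there was at or above the 40th percentile (the filter level), which was 5.39 in kidney and 5.25 in liver, the lowest of the 5 tissues. The Esrrg probe set averaged 6.09 ± 0.07 in null kidney and 6.02 ± 0.05 in wild-type kidney (SD, n = 3 each), and since the deleted part is not stated, it does not check the labels. Xist signal, from the inactive X chromosome, was low (6.34 to 7.22) in null replicate 1 and wild-type replicate 3 of every tissue and 10.68 to 11.38 on the other 20 arrays. Each group thus held 1 low array and 2 high ones, so its 3 arrays were not all repeats of 1 RNA sample. The low arrays had the same number in every tissue of a genotype. Same-numbered arrays of a genotype may therefore share an animal across tissues, which the labels do not state. The main fits over several tissues took all arrays as independent. The difference between the 3′ and 5′ Gapdh control probe sets, a measure of RNA integrity, was 2.87, 2.55 and 2.59 in null kidney and 3.01, 2.42 and 2.57 in wild-type kidney, which overlap. The genotypes also overlapped in brain and salivary tissue. They did not in stomach (null 3.53 to 3.97, wild-type 2.28 to 3.11) or in liver (null 3.91 to 4.16, wild-type 4.25 to 4.81). The part of this in the null effects of stomach and liver was not tested.

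In wild-type tissue, Kcnj1 and Umod were kidney signals, while Cldn10, Ptger3 and Irx1 were also measured elsewhere. Kcnj1 (1418613_at) averaged 8.71 ± 0.23 in wild-type kidney (SD, n = 3), and on the 24 arrays of other tissues of both genotypes it lay between 0.52 and 3.60 with a median of 1.34. The Umod probe sets averaged 9.25 ± 0.08 (1426252_a_at) and 10.75 ± 0.29 (1456306_a_at) in wild-type kidney. On the 24 other arrays they lay at -0.05 to 3.85 and at 1.10 to 5.05. Outside kidney all of these values were under the filter level, so their order among the other tissues was not read.

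**Figure D1:**
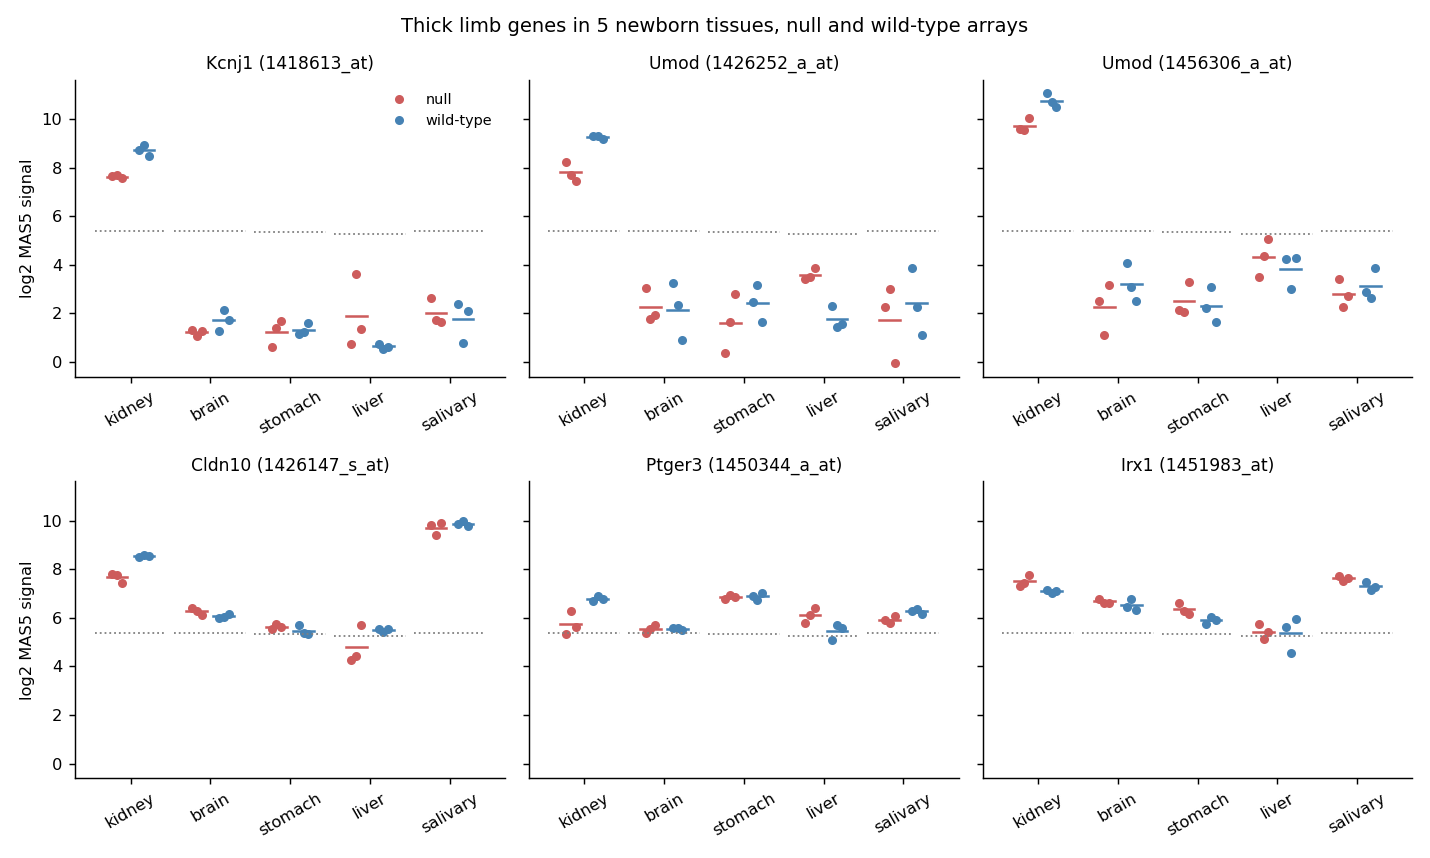
Log2 MAS5 signal (vertical axis) of the 6 member probe sets tested in kidney, with null arrays left of wild-type arrays in each tissue. Points are arrays, bars are group means (n = 3) and dotted lines are the level a tissue's probe sets had to reach to be tested; in kidney the null points of Kcnj1, Umod, Cldn10 and Ptger3 sit below all wild-type points.

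Cldn10, a claudin of which a form lines the sodium pathway between thick limb cells, was highest in wild-type salivary tissue at 9.87 ± 0.11. Wild-type kidney followed at 8.54 ± 0.04 and brain at 6.06 ± 0.08, each apart from its neighbours, and liver (5.50 ± 0.07) and stomach (5.47 ± 0.20) overlapped (SD, n = 3 each). Ptger3, a receptor for prostaglandin E2, was measured in wild-type stomach at 6.88 ± 0.16 and in kidney at 6.79 ± 0.09, whose values overlap. Salivary tissue was lower at 6.27 ± 0.10, and brain (5.54 ± 0.04) and liver (5.46 ± 0.32) overlapped near the filter level. Irx1, a homeobox transcription factor of developing tubules, ran in the order salivary tissue (7.29 ± 0.16), kidney (7.09 ± 0.05), brain (6.52 ± 0.22), stomach (5.90 ± 0.16) and liver (5.38 ± 0.74), and only stomach and liver overlapped.

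Wild-type kidney was set against the mean of the other 4 wild-type tissues in one limma fit over 15 arrays. All 6 member probe sets that could be tested were higher in kidney, where 24.9% of 16690 probe sets were called higher (42.1% in either direction). With values under 5 raised to 5, so that dim tissues give a lower bound, wild-type kidney was at least 13.1-fold higher for Kcnj1, and at least 19.0-fold and 53.7-fold higher for the Umod probe sets 1426252_a_at and 1456306_a_at. The fitted differences of Cldn10, Ptger3 and Irx1 were 1.82, 0.75 and 0.82 (Benjamini-Hochberg adjusted p = 1.08e-09, 2.87e-04 and 0.00568, limma). Since the genes were chosen as kidney genes, the direction is a description of the choice; for Cldn10 and Irx1 it holds against the mean of the other tissues and not against salivary tissue, where both were higher.

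In null kidney, the signals of ROMK, uromodulin and the claudin fell to between 36.6% and 55.0% of the wild-type level. Of the 8 member probe sets 6 were tested in kidney, of which 4 passed lower and 0 higher, for 3 genes. Over all 13577 probe sets tested in kidney 0.781% were called, 0.368% lower and 0.412% higher. The genes were chosen with earlier results of these data known, so their calls beside this share give no independent support. RNA came from whole tissue, in which fewer cells of a type and less RNA per cell cannot be told apart.

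Kcnj1 (1418613_at), the channel, had signals of 7.64, 7.70 and 7.55 in null kidney, against 8.74, 8.92 and 8.46 in wild-type kidney. Every null array was below every wild-type array, and the null arrays lay closer together than the wild-type arrays. The difference was -1.08 (SE 0.13, 95% confidence interval -1.38 to -0.78, n = 3 each), a 2.11-fold lower signal, with an adjusted p of 0.0126 in limma. Of the 13577 probe sets tested, 23 (0.169%) had a difference at least as negative. The other Kcnj1 probe set (1418614_at) stayed under the filter in all tissues, between 1.22 and 5.58 over the 30 arrays, and gave 4.24, 2.80 and 1.22 in null kidney and 1.58, 2.79 and 2.66 in wild-type kidney, which overlap.

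Umod, the secreted protein, was measured by 2 probe sets, and both passed lower. The first (1426252_a_at) gave 8.22, 7.71 and 7.46 in null kidney, against 9.29, 9.29 and 9.16 in wild-type kidney. Every null array was below every wild-type array, and null replicate 1 was the highest of the null arrays. Its difference was -1.45 (SE 0.17, interval -1.84 to -1.06), a 2.73-fold lower signal with an adjusted p of 0.0111 (limma, n = 3 each), and 9 probe sets (0.0663%) had a difference at least as negative.

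The brighter Umod probe set (1456306_a_at) gave 9.58, 9.53 and 10.06 in null kidney, against 11.06, 10.69 and 10.49 in wild-type kidney. The groups do not overlap, and null replicate 3, the lowest null array of the other Umod probe set, was here the highest null array. The difference was -1.02 (SE 0.17, interval -1.40 to -0.64), a 2.03-fold lower signal with an adjusted p of 0.0326 (limma, n = 3 each).

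Cldn10 (1426147_s_at) gave 7.81, 7.77 and 7.45 in null kidney, against 8.51, 8.58 and 8.53 in wild-type kidney. The wild-type arrays lay close together and above all null arrays. The difference was -0.86 (SE 0.12, interval -1.14 to -0.59), a 1.82-fold lower signal with an adjusted p of 0.0184 (limma, n = 3 each), and 63 probe sets (0.464%) had a difference at least as negative. From which of the gene's starts the signal came was not tested.

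Ptger3 (1450344_a_at), the receptor, gave 5.33, 6.26 and 5.64 in null kidney, against 6.71, 6.88 and 6.77 in wild-type kidney. The groups do not overlap, but the null arrays are spread widely and null replicate 1 is under the filter level. The difference of -1.04 (SE 0.22, interval -1.54 to -0.55) did not pass, with an adjusted p of 0.0674 (limma, n = 3 each). Without null replicate 2 it was -1.30 and passed, with an adjusted p of 0.01004. The other Ptger3 probe set (1425251_at) was under the filter in every tissue, from -0.19 to 3.52 over the 30 arrays.

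Irx1 (1451983_at), the transcription factor, gave 7.33, 7.43 and 7.75 in null kidney, against 7.13, 7.04 and 7.09 in wild-type kidney. The null arrays were the higher ones without overlap, the opposite side from the other 4 genes. The difference of 0.42 (SE 0.14, interval 0.11 to 0.72) did not pass, with an adjusted p of 0.200 (limma, n = 3 each), and 749 probe sets (5.52%) had a positive difference at least as large.

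All 6 tested member probe sets separated the genotypes without overlap, as did 20.0% of all probe sets tested in kidney. An exact permutation test of each, two-sided, gave p = 0.1, the smallest that 3 arrays against 3 allow. The limma calls depend on single wild-type arrays: without wild-type replicate 1, or without wild-type replicate 2, 0 of the 4 calls remained, without wild-type replicate 3, 2 did, and without null replicate 1, 3 did. With 1 estimate of the spread shared by all 30 arrays, none of the 4 remained and Ptger3 was called (adjusted p = 0.00984); the SD of Kcnj1 was 0.08 and 0.23 in kidney and up to 1.50 in tissues where it was under the filter. The sizes moved less, and over the 6 arrays left out in turn Kcnj1 lay between -1.20 and -0.97 and Cldn10 between -0.93 and -0.75.

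**Figure D2:**
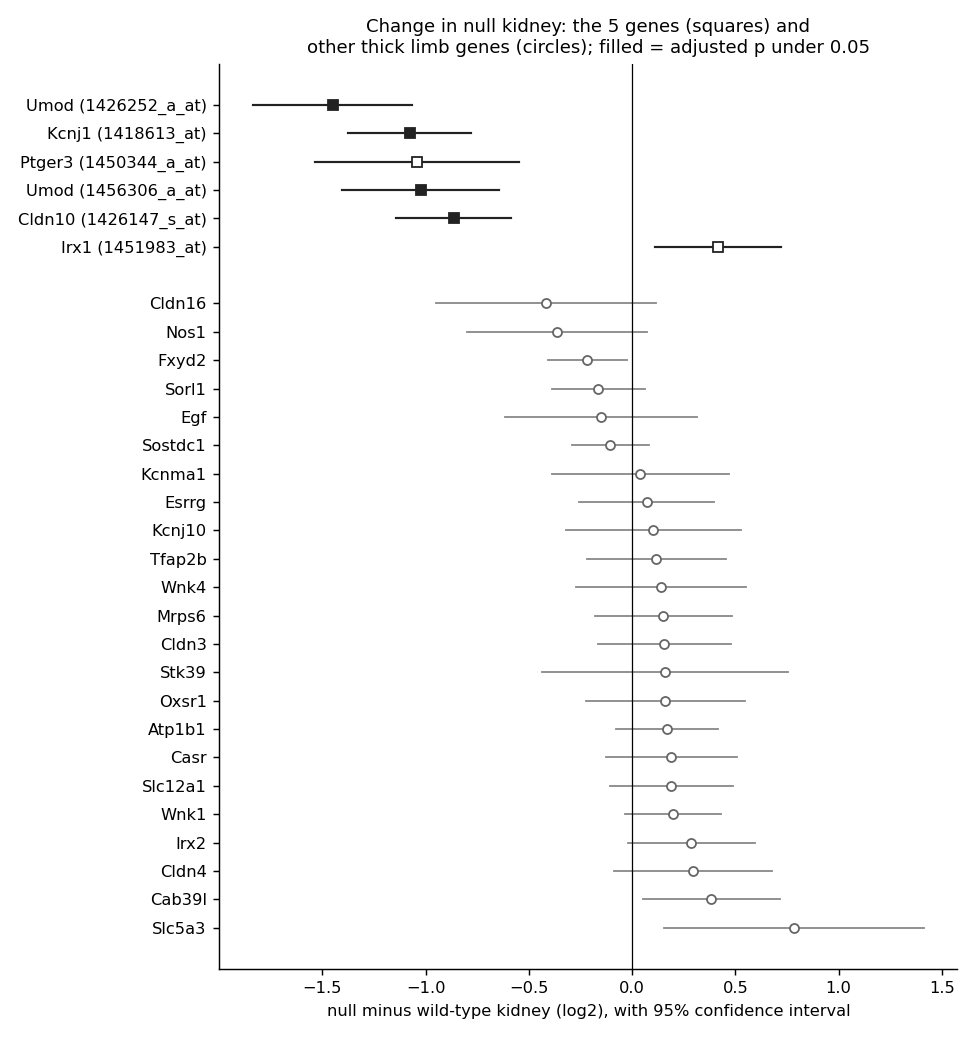
Change of log2 signal in null kidney minus wild-type kidney for the tested members and the tested genes of the thick limb list, with 95% confidence intervals (limma, n = 3 arrays each). Kcnj1, Umod and Cldn10 lie between -1.45 and -0.86 with intervals below 0, and Slc12a1 lies at 0.19 with an interval that holds 0.

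A list of 40 other genes of the thick limb and its neighbours held 30 with a probe set of 1 symbol. It was not confined to markers of the thick limb and included Esrrg itself, whose difference was 0.07. Of the 30 genes, 23 were tested in kidney. None passed in either direction with limma, and 3 had an unadjusted p under 0.05 (Fxyd2, Cab39l and Slc5a3). The median change was 0.15 over the 23, with 17 positive and 6 negative, against 0.01 over all probe sets tested, whose 5th to 95th percentile ran from -0.41 to 0.43. Among the 23 the lowest was Cldn16 at -0.42 and the highest Slc5a3 at 0.78. The filter takes the mean of both genotypes, so it can drop a gene because it is low in null kidney, and 2 of the 7 untested genes, Bsnd and Ppp1r1a, were above the filter level in wild-type kidney only. Their differences of -1.15 and -2.05 were the most negative of the list (adjusted p = 0.378 and 0.219, limma with no filter). Over all 30 genes with a probe set the median was 0.14, with 21 positive and 9 negative.

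Slc12a1, the NKCC2 cotransporter that works beside ROMK, gave 10.82, 10.89 and 10.63 in null kidney, against 10.46, 10.90 and 10.41 in wild-type kidney. The groups overlap. The difference was 0.19 with an interval of -0.11 to 0.49 and an adjusted p of 0.554 (limma, n = 3 each), so the interval allows a signal at most 1.08-fold lower. Cldn16, a claudin of the magnesium and calcium pathway, differed by -0.42 (interval -0.95 to 0.12, adjusted p = 0.457), and Casr, the calcium-sensing receptor, by 0.19 (interval -0.13 to 0.51, adjusted p = 0.581).

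The 3 brightest other genes of the list in wild-type kidney were the sodium pump subunit Atp1b1, the pump regulator Fxyd2 and the signalling inhibitor Sostdc1. Their differences were 0.17, -0.22 and -0.11, and their adjusted p-values 0.519, 0.279 and 0.601 (limma, n = 3 each). Bsnd, which encodes barttin, was under the filter, with 5.44, 5.36 and 3.63 in null kidney and 6.08, 5.91 and 5.89 in wild-type kidney, which do not overlap. Cldn19, the partner of Cldn16, was under the filter too.

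Each member was also read against Slc12a1 on the same array, with the wild-type mean set to 0, which removes any factor that scaled both signals on an array. Kcnj1 then gave -1.30, -1.31 and -1.20 in null kidney, against 0.16, -0.10 and -0.07 in wild-type kidney. Umod 1426252_a_at gave -1.26, -1.84 and -1.83 in null kidney, against 0.17, -0.27 and 0.09 in wild-type kidney. All 5 probe sets of Kcnj1, Umod, Cldn10 and Ptger3 stayed apart without overlap.

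The 5 differences ran from -1.64 to -1.05, each more negative than the change of the probe set itself by the 0.19 of Slc12a1. An exact permutation test gave p = 0.1 for each, the smallest possible with 3 against 3, and 0.12 after adjustment over the 6 comparisons. Irx1 overlapped, with a difference of 0.23 (exact p = 0.6). A difference from Slc12a1 shows unequal change of the signals and not that Slc12a1 stayed level.

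**Figure D3:**
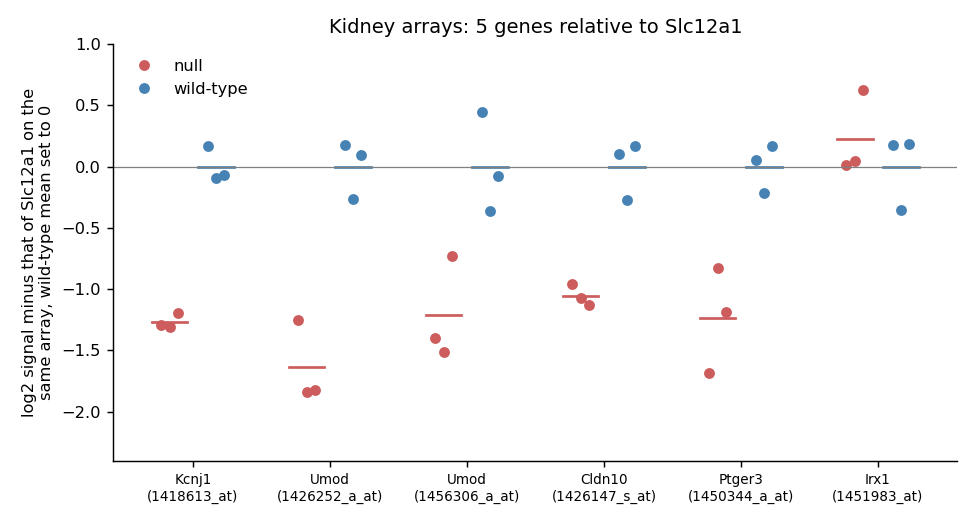
Log2 signal of each member minus that of Slc12a1 on the same kidney array, with the wild-type mean set to 0; null arrays are left of wild-type arrays, points are arrays and bars are means (n = 3). The null points of Kcnj1, Umod, Cldn10 and Ptger3 lie between -1.84 and -0.73, and those of Irx1 overlap the wild-type points.

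Markers of other cell types of the kidney moved in part with these genes. The 14 lists held 104 genes and were chosen with earlier results of these data known. Over all probe sets tested in kidney 0.368% passed lower and 0.412% higher. Of the list genes 71 were tested, and 4 passed lower and 0 higher. Those were the proximal tubule genes Miox (-1.71, adjusted p = 0.0126) and Slc13a3 (-1.61, adjusted p = 0.0111), Slc16a7 of the distal and connecting tubule list (-0.96, adjusted p = 0.0326) and Car2 of the intercalated cell list (-1.28, adjusted p = 6.45e-04), all by limma. Of the proximal tubule list 10 of 11 tested genes were negative with a median of -0.59, against 0.01 over all probe sets tested in kidney. The other 11 lists held 50 tested genes and no call.

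Of 21 marker genes under the filter, 4 were above its level in wild-type kidney only and 2 in null kidney only. The first were Klk1 of the distal and connecting tubule list, Atp6v1b1 and Rhbg of the intercalated cell list, and Myh11. Klk1, a kallikrein of a family of closely similar genes that its probe set may also read, had the largest difference of all these lists, with 4.38, 2.07 and 0.71 in null kidney, against 7.95, 7.16 and 7.32 in wild-type kidney. The groups do not overlap. With no filter its adjusted p was 0.0804, that of Atp6v1b1 (-2.16) 0.105 and that of Rhbg (-1.32) 0.296 by limma, so none passed.

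Summed over a list, the linear signal of the proximal tubule markers was 5648.9 to 6943.6 in null kidney and 7495.0 to 8077.3 in wild-type kidney, without overlap. The thick limb list, members not included, gave 11602.6 to 12525.2 in null kidney and 10854.9 to 11749.6 in wild-type kidney, which overlap. Its brightest gene in wild-type kidney was the pump subunit Atp1b1 at 11.55, with Slc12a1 at 10.59. The list takes in neighbours of the thick limb, so its sum does not measure that segment alone. The intercalated cell list gave 678.9 to 723.1 in null kidney and 1293.3 to 1411.6 in wild-type kidney, most of it from Car2, and without Car2 it gave 244.7 to 307.3 in null kidney and 323.3 to 336.7 in wild-type kidney. In that list Slc26a4 differed by 0.41 and Foxi1 by -0.05, neither of which passed. The part of these shifts in the changes of Kcnj1, Umod and Cldn10 was not tested.

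Outside kidney, none of the members passed in any tissue. Of 32 pairs of a member probe set and another tissue 11 were tested, with 0 calls and 2 at an unadjusted p under 0.05, Ptger3 in liver and Irx1 in stomach. Over all probe sets the null effect was called for 0% in brain, 6.93% in liver, 8.22% in salivary tissue and 23.5% in stomach. Cldn10 in salivary tissue, where its level was highest, gave 9.83, 9.39 and 9.91 in null mice and 9.85, 9.99 and 9.77 in wild-type mice, which overlap. Its difference was -0.16 (interval -0.52 to 0.20, adjusted p = 0.606, limma, n = 3 each). In liver Cldn10 was above the filter level in wild-type mice only and so was not tested. It gave 4.28, 4.41 and 5.72 in null liver and 5.53, 5.42 and 5.54 in wild-type liver, which overlap. With no filter the liver difference was -0.69 (adjusted p = 0.444, limma).

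Ptger3 in stomach, where its wild-type level matched that of kidney, gave 6.78, 6.95 and 6.86 in null mice and 6.90, 6.72 and 7.03 in wild-type mice. These overlap, with a difference of -0.02 (interval -0.32 to 0.28, adjusted p = 0.928, limma). In liver Ptger3 gave 5.79, 6.13 and 6.41 in null mice and 5.10, 5.71 and 5.57 in wild-type mice, on the opposite side from kidney, with a difference of 0.65 and an adjusted p of 0.163. Irx1 signals were the higher ones in null mice, without overlap, in stomach and in salivary tissue as in kidney. Its differences in stomach and salivary tissue were 0.45 and 0.34, with adjusted p of 0.0856 and 0.228 (limma, n = 3 each), and neither passed. The share of all tested probe sets without overlap was counted in kidney only, where it was 20.0%.

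**Figure D4:**
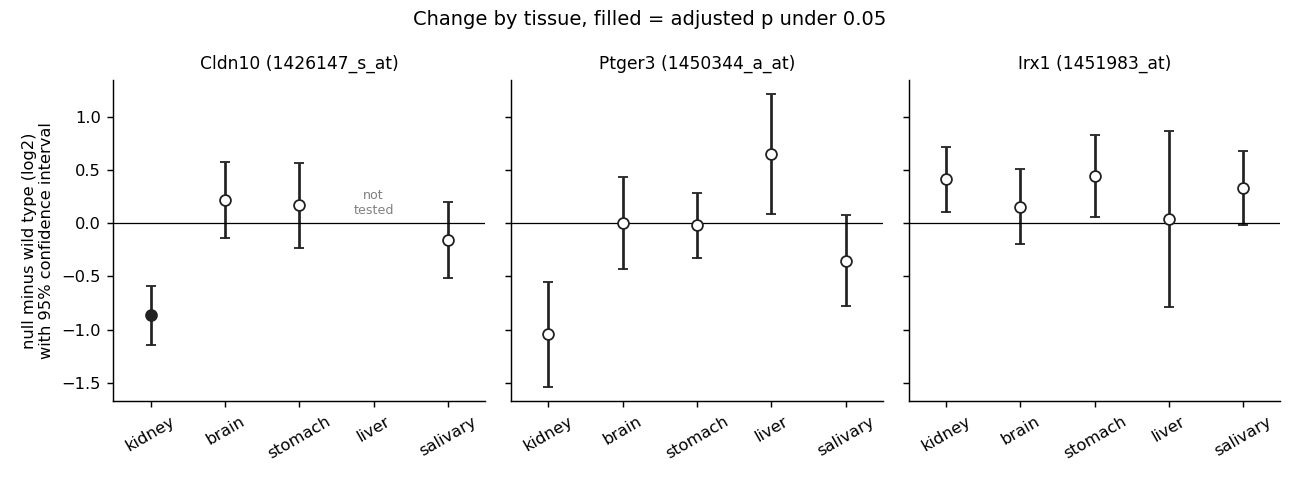
Change of log2 signal in null minus wild-type arrays by tissue for the member probe sets tested there, with 95% confidence intervals from limma (n = 3 arrays each). Cldn10 and Ptger3 lie below 0 in kidney at -0.86 and -1.04, and Cldn10 in salivary tissue and Ptger3 in stomach lie near 0 at -0.16 and -0.02.

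Whether the kidney change differed from that in other tissues was tested in one limma fit over the 30 arrays, as the null effect in kidney minus the mean null effect in the other 4 tissues. Among 16690 probe sets 19 (0.114%) were called, and of the members only Ptger3 was, with a difference of -1.11 (SE 0.22, interval -1.57 to -0.66, adjusted p = 0.0350). Cldn10 gave -0.75 (interval -1.27 to -0.22, adjusted p = 0.512) and Irx1 0.17 (adjusted p = 0.969). Kcnj1 and Umod have no measured change outside kidney, since their signals there are under the filter, so their fitted -1.31, -1.56 and -0.87 set kidney against signals under the filter. The Ptger3 call was lost, with adjusted p of 0.051 to 0.158, in 12 of the 30 fits that leave out 1 array.

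Against single tissues, a comparison added after the data were seen, the kidney change of Ptger3 differed from that in liver by -1.69 (adjusted p = 0.00139), where 2.29% of probe sets were called. Against stomach it was -1.02 (adjusted p = 0.0523, 2.28% called), against brain -1.05 (adjusted p = 0.260, 0.0479% called) and against salivary tissue -0.69 (adjusted p = 0.247, 2.03% called). For Cldn10, kidney against salivary tissue, the tissues with the highest levels, gave -0.70 (interval -1.37 to -0.04, adjusted p = 0.325). Against brain it was -1.08 (adjusted p = 0.413) and against stomach -1.03 (adjusted p = 0.0990). Against liver, where Cldn10 was under the filter, it was -0.17 (interval -0.83 to 0.49, adjusted p = 0.876, all by limma).

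Over the 30 arrays, with values under 5 raised to 5, the other genes most like each member were found by Pearson correlation, which describes tissue pattern and is set mostly by which tissues express a gene. Kcnj1 was most like Kl (r = 0.999), which encodes the co-receptor klotho, and Hdc, the histamine-forming enzyme (r = 0.997). Kl also fell in null kidney, by 1.25 (adjusted p = 0.0111), and Hdc by 0.85 (adjusted p = 0.0349), both by limma. The null kidney arrays entered the correlation, and every Kcnj1 value outside kidney was raised to 5. Likeness to Kcnj1 thus includes likeness of its change in null kidney, so these falls are no separate result. Umod (1456306_a_at) was most like ccdc198, Pth1r, the parathyroid hormone receptor, and Slc22a2, a cation transporter, at r between 0.998 and 0.999, and none of these passed in null kidney (-0.45 to -0.39).

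Cldn10 was most like Slc5a8, Rapgef3 and Cgnl1 (r = 0.951 to 0.962), whose kidney changes were -0.03, -0.10 and 0.09. Ptger3 was most like Gm20559, Tpm1 and Tpm2 (r = 0.829 to 0.843), the last 2 being tropomyosins of muscle, with kidney changes of -0.62, -0.53 and -0.90 that did not pass. Irx1 was most like Sinhcaf, Arglu1 and Slc9a3r2 (r = 0.891 to 0.927).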

How the data were processed

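Gene expression was measured with 30 arrays, 3 for each genotype in each of 5 tissues. The authors deposited log2 values of MAS5 signals, with MAS5 named per the submitters' processing notes, while the sources used here name neither its version nor its scaling target. Without the 64 array controls, 22626 of 22690 probe sets remained. Only the 20380 annotated with a single symbol were named, not the 691 with more or the 1555 without. No symbol was changed through the gene ID.

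Values were used as deposited. The genotypes were compared within each tissue by limma 3.58.1 under R 4.3.3 (lmFit, eBayes with a mean-variance trend) over probe sets at or above the 40th percentile of the mean, with Benjamini-Hochberg adjustment over all tested probe sets and a threshold of 0.05. Tissue levels and differences between tissues came from fits of 15 and 30 arrays over all probe sets at or above that percentile in 1 tissue or more. The fits were tested on simulated data. Exact permutation tests used Python 3.11.15. The number of arrays limits the precision.

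The 5 genes and all gene lists were chosen with earlier results of these data known, so they give no independent support. Named were all member probe sets, 5 set genes of the thick limb list (Slc12a1, Bsnd, Cldn16, Cldn19 and Casr, with 2 others of the rule not reported here), any that passed and its 3 brightest others in wild-type kidney, the genes of the other lists that passed, and the 3 genes most like each member over the arrays. Genes named because the filter dropped them or because they set a list's sum or range (Ppp1r1a, Klk1, Atp6v1b1, Rhbg, Myh11, Slc26a4, Foxi1, Hsd11b2 and Aqp2) and the list genes at an unadjusted p under 0.05 were chosen after their values were seen. A gene of a list stood for its probe set with the highest kidney mean. The labels do not say that replicate numbers pair null and wild-type arrays, so they were not paired in the main fits. Deviations of same-numbered kidney arrays correlated at -0.08 to 0.06, and 2 of 6 arrays were closest to their own number. These values show no pairing and cannot exclude one. Alternatives were other filters, a floor of 5, other normalizations, one fit over all arrays, a replicate block, Xist or Gapdh as covariate, no trend, other thresholds, array weights and each array left out in turn.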

Additional observations from a re-analysis of the deposited data

Results flagged for a closer look

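The change of Ptger3 in null kidney differed from that in other tissues by the test of the difference itself. The null effect in kidney minus the mean null effect in the other 4 tissues was -1.11 on the log2 scale (adjusted p = 0.0350, limma). That fit took all arrays as independent, although same-numbered arrays of a genotype may share an animal across tissues. With a random block of genotype and replicate number, added after the data were seen, the adjusted p was 0.0268 (limma). The kidney change itself did not pass (adjusted p = 0.0674), and the call on the difference was lost in 12 of the 30 fits that leave out 1 array. In a comparison added after the data were seen, the null effect in kidney minus that in liver was -1.69 (adjusted p = 0.00139, limma), while kidney against stomach, brain or salivary tissue did not pass (adjusted p = 0.0523, 0.260 and 0.247). In kidney 3 of 3 null arrays were below all wild-type arrays, and in liver 3 of 3 null arrays were above all wild-type arrays, with liver signals close to the filter level. The Gapdh difference also separated the genotypes in liver, and its part in this was not tested. Among all probe sets tested in kidney 20.0% had no overlap, and that share was not counted in liver.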

How the results depend on the processing

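Of the 13577 probe sets tested in kidney, 106 were called, against 26 with no filter, 160 with equal array medians, 37 in one fit over 30 arrays, 41 with the Gapdh difference as covariate, 20 without a trend, 4 at adjusted p under 0.01, 305 at adjusted p under 0.10 and 4 to 295 with 1 array left out (295 without null replicate 2). The 4 member calls became 1 in one fit over 30 arrays, 2 without a trend and 0 to 5 with 1 array left out. The 4 calls among other cell types became 2 in one fit and 1 to 11 with 1 array left out. In one fit over 30 arrays the adjusted p was above 0.05 for Kcnj1 (-1.08), both Umod probe sets (-1.45 and -1.02) and Cldn10 (-0.86), and below it for Ptger3 (-1.04). The Umod value of -1.02 was also no longer called with no filter, with the Gapdh covariate or without a trend, and Cldn10 at -0.86 without a trend. With 1 array left out, Kcnj1 ran from -1.20 to -0.97, Umod from -1.66 to -1.28 and from -1.19 to -0.87, Cldn10 from -0.93 to -0.75 and Ptger3 from -1.30 to -0.84. For the kidney change against other tissues, 1 member was called, 5 with a floor of 5, 0 against brain, salivary tissue or stomach alone and 0 to 1 with 1 array left out. The floor puts nearly all arrays of Kcnj1 and Umod outside kidney at 1 value, which leaves them little or no spread there. Cldn10 was also among the 5, and its only values under 5 were 4.28 and 4.41 in null liver. Signs turned for values near 0: Ptger3 in brain was -0.021 with quantile normalization and -0.085 to 0.085 with 1 array left out, Ptger3 in stomach ran from -0.10 to 0.053, and Irx1 in liver was -0.11 with a floor of 5 and -0.37 to 0.33 with 1 array left out. Except where a construction is named, the cause was not tested. Ptger3 in kidney was under the 60th percentile filter and gave no value there.

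With the replicate number as a block, 106 probe sets and 4 member probe sets were called in kidney, and Kcnj1 stayed at -1.08, so the block changed none of the 4 calls. The labels do not say that the numbers pair the samples. A random block of genotype and number over tissues, added after the data were seen, changed no member call.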

Other observations

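Ppp1r1a, an inhibitor of protein phosphatase 1 singled out after its values were seen, ran from 3.06 to 5.65 in null kidney, against 6.08 to 6.48 in wild-type kidney (3 arrays each). The groups do not overlap, and with no filter its adjusted p was 0.219 (limma). Umod 1426252_a_at, under the filter in liver, gave 3.41, 3.50 and 3.85 in null liver, against 2.29, 1.45 and 1.55 in wild-type liver, which do not overlap either. Its kidney signals are far above these, and no fold is given for values under the filter. How many probe sets lack overlap was not counted in liver. In the principal cell list 9 of 11 tested genes were positive and 2 negative, and none passed by limma. Its most negative was Hsd11b2, the enzyme that inactivates glucocorticoids, at -1.13 (adjusted p = 0.0568), and its most positive was Aqp2, the water channel of the collecting duct, at 0.89 (adjusted p = 0.108).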
